A study of Mus musculus with 4 samples.

Results

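Cytosolic nucleic acid sensing was examined through 9 mouse genes, picked by symbol from the 17013 genes of the deposited expression values. They encode the RIG-I-like receptors (Ddx58, Ifih1 and Dhx58), their adaptor (Mavs), the DNA sensor cGAS (listed as Mb21d1), the adaptor STING (listed as Tmem173), the Z-nucleic acid sensor ZBP1 (Zbp1), the kinase PKR (Eif2ak2) and the kinase TBK1 (Tbk1). All 9 were found. The cells were wild-type bone marrow macrophages, grown from marrow of male C57BL/6 mice with M-CSF and seeded on porous inserts. Both groups had artificial necrotic bone fluid (aNBF), made from freeze-thawed bone, above the cells for 24 h. Under the insert, the fat control medium (Con, 2 libraries) held the middle layer of freeze-thawed abdominal fat, and the high-fat-containing medium (Fat, 2 libraries) held its top layer. No group lacked aNBF or the fat preparation, and neither the number nor the age of the donor mice is given in the sources used here.

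A cell meets foreign or misplaced nucleic acid in its cytosol through a small set of proteins. RIG-I (Ddx58) and MDA5 (Ifih1) bind double-stranded RNA and pass the signal to MAVS on mitochondria, while LGP2 (Dhx58) lacks the signalling domains and modulates both. cGAS binds DNA and makes the second messenger cGAMP, which STING receives on the endoplasmic reticulum. Both adaptors engage TBK1, which phosphorylates IRF3 and so starts type I interferon transcription, and several of the sensors are themselves interferon-inducible genes. In macrophages these routes respond to infection and to nucleic acid from dead cells.

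Comparisons of 1 gene between libraries use CPM, the read count scaled to the size of the library. Comparisons between genes use TPM, in which gene length is taken out as well. The recovered totals lay between 33573852 and 40785872 reads per library, and 12470 genes reached 0.5 CPM in 2 or more of the 4. All of these entered a two-sided limma fit of log2(CPM + 0.1), and p-values were adjusted over them by the Benjamini-Hochberg method. A gene was called at an adjusted p under 0.05, and all fold changes below are log2 values of Fat minus Con on that scale. The labels do not say whether the libraries came from separate cultures or animals, so the p-values measure only the spread between these libraries. For a single gene, an exact permutation test of 2 libraries against 2 cannot go below p = 0.333.

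Of the 9 genes, 4 were called lower in Fat: Zbp1, Dhx58, Ifih1 and Tmem173. Among all tested genes, 5.0% were called lower, and the members were chosen with earlier results of these data known. With limma, 0 were called higher, against 3.99% of all genes, and 0 were higher at an unadjusted p under 0.05. The share of all tested genes at that unadjusted threshold is not given here. With edgeR's quasi-likelihood test, edgeR's exact test or DESeq2, 0 of the 9 were called higher. The median fold change of the 9 genes was -0.48, and that of all tested genes 0.01. In 7 of the 9 genes both Fat libraries lay below both Con libraries, an order found in 26.2% of the tested genes. The opposite order, found in 29.4% of the tested genes, occurred in 0 of the 9. The exceptions were Mb21d1 and Tbk1, whose groups overlapped. The calls rest on limma's mean-variance trend: without it 0 of the 9 were called lower, with adjusted p between 0.107 and 0.959, and among all genes 12 were called lower and 19 higher. The count of 4 also rests on single libraries: it was 2 without Con replicate 1 (Tmem173 and Zbp1), 2 without Fat replicate 2 (the same genes) and 6 without Con replicate 2 or Fat replicate 1. With the TPM values it was also 2. The summed level of 10 macrophage markers was also lower in both Fat libraries, with 1 marker, Lyz2, giving most of the sum, and its part in the result was not tested. In bulk samples, fewer cells that express a gene and less RNA per cell cannot be told apart.

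**Figure D1:**
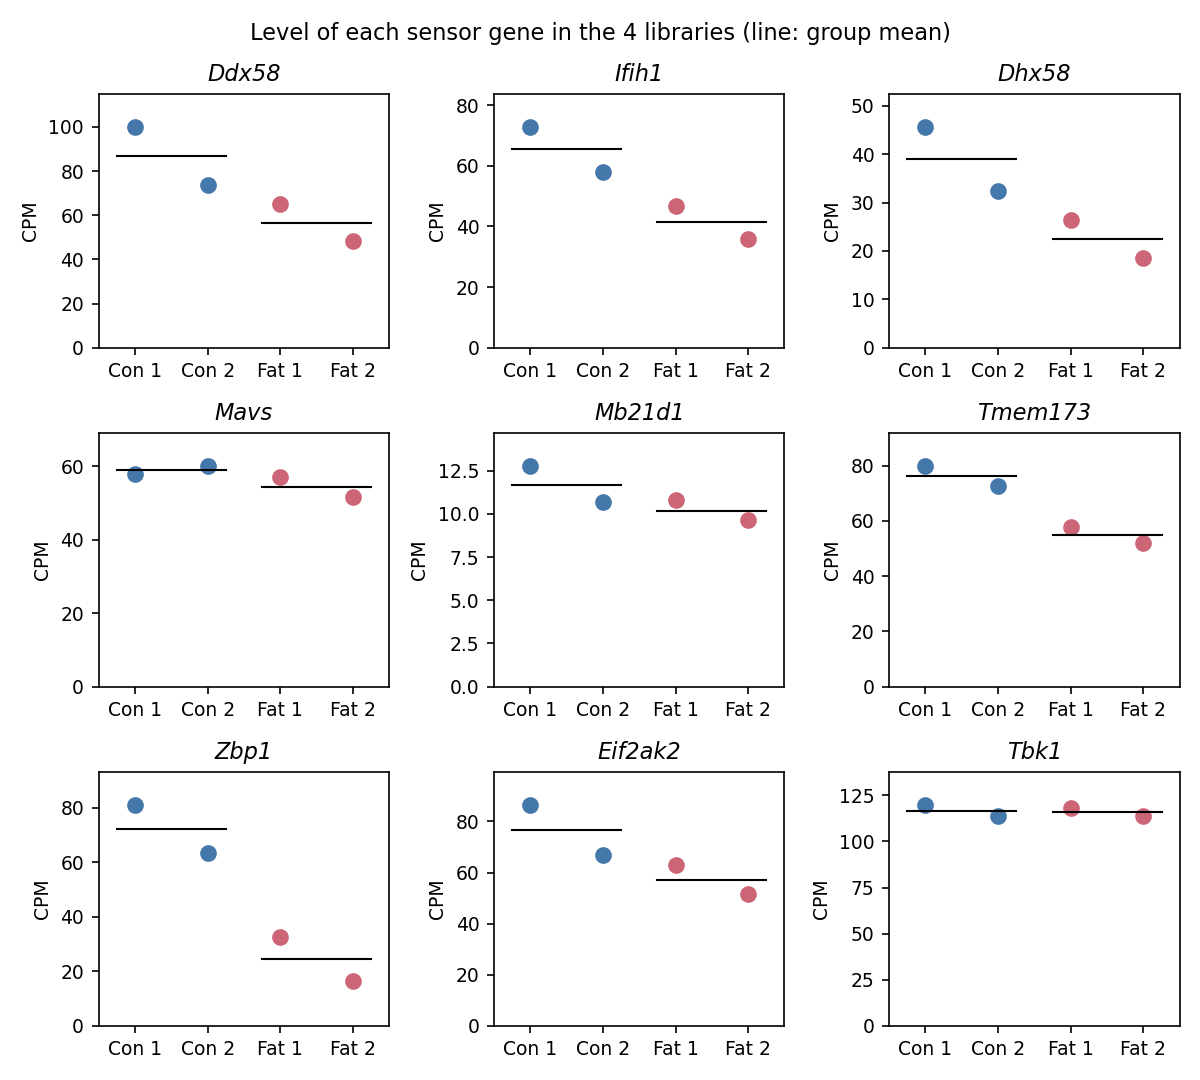
CPM of each of the 9 genes (y axis, from 0) in Con replicates 1 and 2 and Fat replicates 1 and 2 (x axis), each point 1 library and each line a group mean. Zbp1 shows the widest gap between the groups, and the 4 libraries of Tbk1 lie between 113.6 and 120.0 CPM.

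Promoter sequence was examined because interferon-inducible genes often carry an interferon-stimulated response element (ISRE), which IRF proteins bind. RefSeq promoter windows (build GRCm38.p6) ran from 250 bases before to 50 after the gene start. Windows of 6 of the 9 genes were searched: Ddx58, Ifih1, Mavs, Mb21d1, Eif2ak2 and Tbk1. Zbp1, Dhx58 and Tmem173, all called lower, were not searched, so Ifih1 was the only called gene among those searched. Besides the ISRE, the letters TTCNNNGAA (N for any base) were searched on both strands. They occurred in 8.3% of all windows and, of the 6 genes, in Eif2ak2 alone, before the start. The ISRE was searched as GAAA, any 2 bases, then GAAA, read on both strands. These letters occurred in the windows of Ddx58, Ifih1 and Eif2ak2 and in none of those of Mavs, Mb21d1 and Tbk1. They occurred in 3.44% of all 32851 windows. In each of the 3 genes the match lay just past the annotated start, a stretch where 0.408% of all windows held one, counted after the matches had been seen. The 30 bases around each match are shown with the matched letters in capitals, since these are the letters the 3 genes share. In Ifih1 the match covered bases 33 to 42 from the start (minus strand, chr2:62646206-62646235), in Ddx58 bases 3 to 12 on the opposite strand to the gene (minus strand, chr4:40239804-40239833), and in Eif2ak2 bases 19 to 28 (minus strand, chr17:78882535-78882564).
Ifih1: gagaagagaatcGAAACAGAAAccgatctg
Ddx58: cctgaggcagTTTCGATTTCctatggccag
Eif2ak2: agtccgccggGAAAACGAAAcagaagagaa

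The 100 bases before the start are shown for Tbk1 (minus strand, chr10:121586795-121586894) and Mavs (plus strand, chr2:131233963-131234062), whose windows had no match. The ISRE matches above lay past the start, so these letters cover another stretch and do not show the lack of a match. The 250 bases before the start held 68.4% G and C in Tbk1 and 65.2% in Mavs, against a median of 52.4% over all windows. The values were 50% in Ifih1 and in Mb21d1, 53.6% in Ddx58 and 60% in Eif2ak2.
Tbk1: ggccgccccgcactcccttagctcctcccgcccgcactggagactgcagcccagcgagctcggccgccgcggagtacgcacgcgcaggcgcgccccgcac
Mavs: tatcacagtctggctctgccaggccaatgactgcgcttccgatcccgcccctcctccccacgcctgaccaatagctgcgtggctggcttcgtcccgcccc
A match is a description of letters, and no binding was measured.

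Zbp1, whose protein recognises left-handed Z-RNA and Z-DNA and can start necroptosis through RIPK3, had the largest difference of the 9 genes. Con replicates 1 and 2 had 81.2 and 63.3 CPM, and in this order of replicates the Fat libraries had 32.5 and 16.5 CPM. Both Fat libraries were well under both Con libraries, although Fat replicate 2 was itself under Fat replicate 1 by 0.97 on the log2 scale. In limma its log2 difference was -1.63 (standard error 0.28, 95% confidence interval -2.27 to -0.98, adjusted p = 0.0151), which is 3.09-fold on the linear scale, lower in Fat. Of all genes, 0.361% of the tested genes had a lower fold change. Leaving out any 1 library gave values from -2.11 to -1.14, all called, with adjusted p between 3.75e-05 and 0.0217.

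Among the RIG-I-like receptors, Ifih1 fell from 72.9 and 58.0 CPM in Con to 46.7 and 35.9 CPM in Fat. The groups did not overlap, and within each group replicate 1 was the higher library. The fold change of Ifih1, the sensor of long double-stranded RNA, was -0.67 (standard error 0.14, 95% confidence interval -1.0 to -0.33, limma adjusted p = 0.0298). Without Con replicate 1 it was -0.50 and not called (adjusted p = 0.0654), and likewise without Fat replicate 2 (-0.48, adjusted p = 0.0695). With DESeq2 the adjusted p was 0.0769 and with the TPM values 0.079.

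Dhx58 was at 45.7 and 32.3 CPM in Con and at 26.4 and 18.6 CPM in Fat. Again both Fat libraries were the lower ones, and the spread within each group, 0.50 on the log2 scale, was large beside the gap of 0.29 between the nearest Con and Fat libraries. Dhx58, the receptor without signalling domains, had a fold change of -0.79 (standard error 0.19, 95% confidence interval -1.24 to -0.34, limma adjusted p = 0.0473). This call was close to the threshold. It was lost without Con replicate 1 (-0.54, adjusted p = 0.111), without Fat replicate 2 (-0.54, adjusted p = 0.124), with DESeq2 (adjusted p = 0.165) and with the TPM values (adjusted p = 0.098). It was also lost with no filter (adjusted p = 0.0614) and when only genes averaging 5 CPM or more were tested (adjusted p = 0.0591).

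Ddx58 was at 100.1 and 73.8 CPM in Con and at 65.0 and 48.1 CPM in Fat. The groups did not overlap, but Fat replicate 1 was only 0.18 on the log2 scale under Con replicate 2, while the Con libraries differed by 0.44 from each other. Its fold change of -0.62 (standard error 0.17, 95% confidence interval -1.01 to -0.22) was not called (limma adjusted p = 0.0672). Without Con replicate 2 it was -0.84 (adjusted p = 0.00617) and without Fat replicate 1 also -0.84 (adjusted p = 0.00941), and edgeR's exact test gave an adjusted p of 0.00597. The fold changes of the 3 receptors thus lay between -0.79 and -0.62, with confidence intervals that overlap, and the difference between them was not tested.

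Added together, the 3 receptors had 114.7 and 83.3 TPM in Con and 72.1 and 53.0 TPM in Fat. Within that sum the make-up shifted little: Ddx58 gave 38.6% and 38.5% in Con and 40.4% and 40.6% in Fat. Ifih1 gave 25.2% and 27.0% in Con and 26.0% and 27.2% in Fat. Dhx58 gave 36.2% and 34.5% in Con and 33.6% and 32.2% in Fat, so its share was lower in both Fat libraries.

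Mavs, the adaptor below RIG-I and MDA5, was at 57.9 and 60.1 CPM in Con and at 57.1 and 51.7 CPM in Fat. The Fat libraries lay below the Con libraries, Fat replicate 1 by little. Its fold change of -0.12 (standard error 0.07, 95% confidence interval -0.28 to 0.04) was not called (limma adjusted p = 0.342). The ratio of the summed receptors to Mavs, in TPM, was 2.89 and 2.06 in Con and 1.82 and 1.48 in Fat.

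In the DNA-sensing arm, Tmem173 fell from 80.0 and 72.7 CPM in Con to 57.7 and 52.0 CPM in Fat. The gap between the groups was wider than the spread within either, which was at most 0.15 on the log2 scale. Tmem173, the gene of STING, had a fold change of -0.48 (standard error 0.08, 95% confidence interval -0.65 to -0.30, limma adjusted p = 0.0121), the smallest adjusted p of the 9 genes. It was called with each library left out (adjusted p between 0.00401 and 0.0377), with the TPM values (0.035), with DESeq2 (5.85e-05) and with edgeR's quasi-likelihood test (0.0113).

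Mb21d1, the gene of cGAS, was the lowest of the 9 genes, at 12.8 and 10.7 CPM in Con and at 10.8 and 9.63 CPM in Fat, from 395 to 434 reads. Fat replicate 1 lay just above Con replicate 2, so the groups overlapped. Its fold change of -0.20 (standard error 0.12, 95% confidence interval -0.47 to 0.08) was not called (limma adjusted p = 0.366). Counting error was at most 5.0% of a library's value, and a decrease of the size seen for Zbp1 lies outside the interval. The ratio of Tmem173 to Mb21d1, in TPM, was 10.9 and 11.8 in Con and 9.28 and 9.37 in Fat.

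Eif2ak2, the gene of PKR, which is activated by double-stranded RNA and then halts translation by phosphorylating eIF2α, was at 86.6 and 67.0 CPM in Con and at 62.9 and 51.5 CPM in Fat. Both Fat libraries were lower, the nearest pair by 0.09 on the log2 scale. The fold change of -0.42 (standard error 0.13, 95% confidence interval -0.73 to -0.11) was not called (limma adjusted p = 0.101). It passed the threshold without Con replicate 2 (-0.60, adjusted p = 0.00831), without Fat replicate 1 (-0.56, adjusted p = 0.0325), with edgeR's exact test (adjusted p = 0.0267) and with DESeq2 (adjusted p = 0.0202). Tbk1, the kinase both adaptors use, was at 120.0 and 113.6 CPM in Con and at 118.3 and 113.8 CPM in Fat. The groups overlapped over nearly their whole range. The difference, -0.01 with a standard error of 0.06, did not pass the test (limma adjusted p = 0.95), and its 95% confidence interval, -0.14 to 0.12, was the narrowest of the 9.

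**Figure D2:**
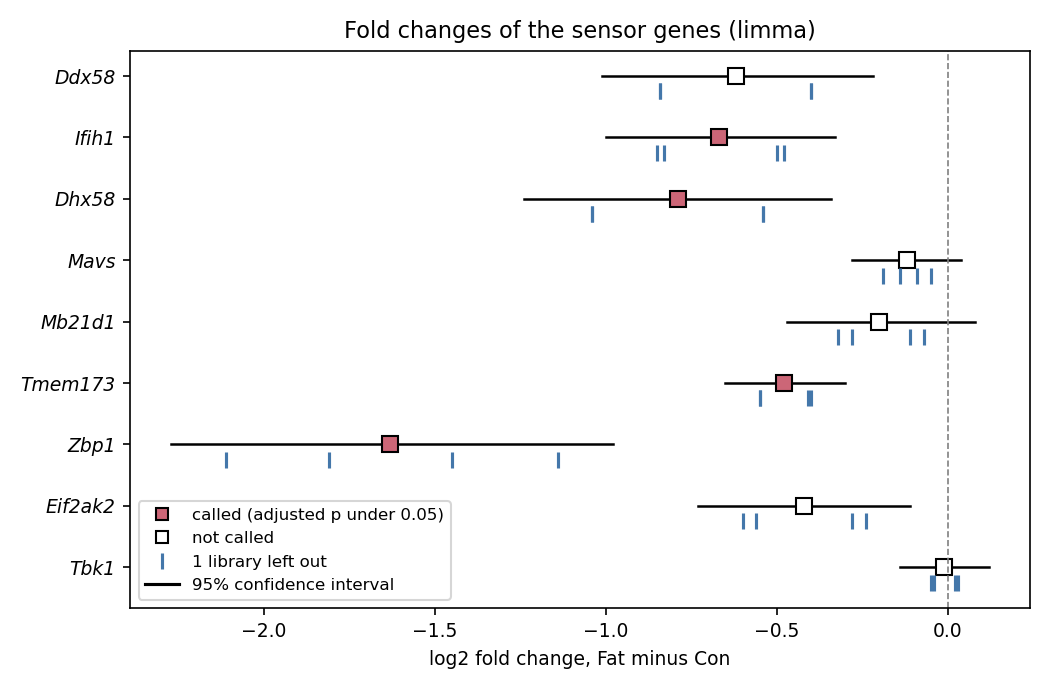
Log2 fold changes (x axis, Fat minus Con) of the 9 genes (y axis) from limma, with 95% confidence intervals as lines, filled squares for called genes and blue ticks for the values with 1 library left out. The 4 called genes lie between -1.63 and -0.48, and Tbk1 sits at -0.01.

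One feature ran through the libraries as well as the groups. Replicate 1 was above replicate 2 for 8 of the 9 genes in Con (Mavs was the exception) and for 9 of 9 in Fat, and Fat replicate 2 was the lowest of the 4 libraries for 8 of the 9, the exception being Tbk1. Over all tested genes the median difference between replicates was 0.00 in both groups. The share of all tested genes with these orders was not counted, so the orders are not shown to be particular to the sensors. The step from replicate 1 to replicate 2 differed between the genes. For Zbp1, Dhx58, Ddx58 and Ifih1 the log2 difference of replicate 2 minus replicate 1 was -0.36, -0.50, -0.44 and -0.33 in Con and -0.97, -0.50, -0.43 and -0.38 in Fat.

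Per gene length, the order of the levels differed between the groups. In Con, Tbk1 (83.5 ± 4.37 TPM, SD, n = 2), Zbp1 (72.5 ± 13.7 TPM) and Tmem173 (71.9 ± 5.87 TPM) stood first, and each overlapped its neighbour. Mavs, Eif2ak2, Ddx58, Dhx58 and Ifih1 followed, with means from 40.1 down to 25.7 TPM and neighbours that overlapped throughout. Mb21d1 stood apart at 6.37 ± 0.895 TPM. In Fat, Tbk1 (84.8 ± 2.37 TPM), Tmem173 (52.8 ± 3.91 TPM), Mavs (37.8 ± 2.69 TPM) and Eif2ak2 (29.3 ± 4.15 TPM) came in that order without overlap between neighbours. Zbp1 stood sixth, at 25.1 ± 11.6 TPM, between Ddx58 and Dhx58, and it overlapped both. The ratio of Zbp1 to Tbk1, in TPM, was 0.949 and 0.781 in Con and 0.385 and 0.203 in Fat.

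**Figure D3:**
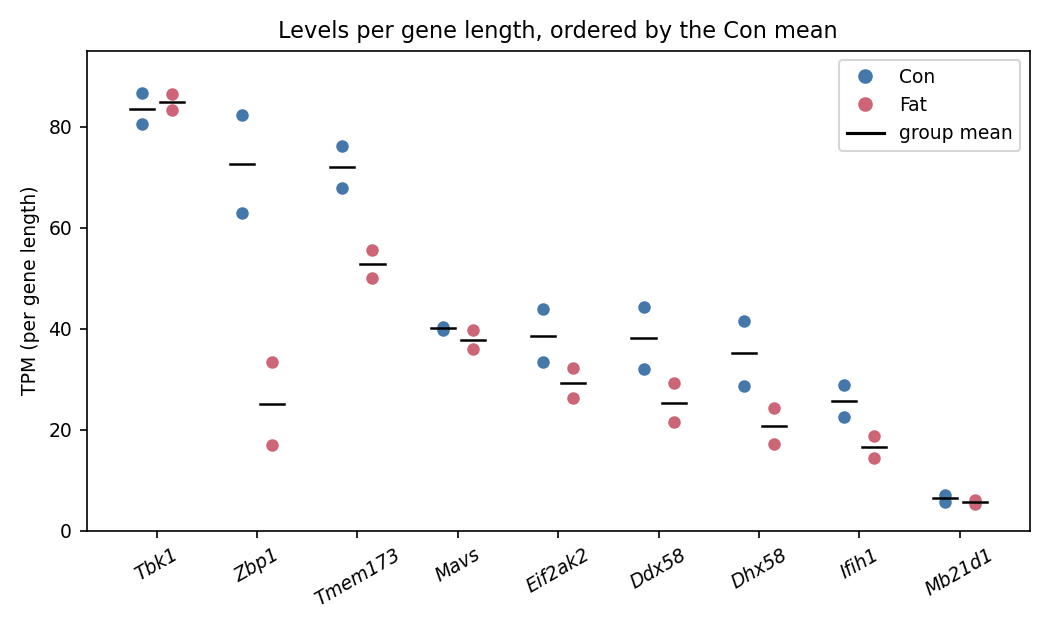
Levels in TPM (y axis, from 0) of the 9 genes (x axis, ordered by the Con mean), each point 1 library and each short line a group mean. Zbp1 is second in Con at 72.5 TPM and sixth in Fat at 25.1 TPM, while Tbk1 is first in both.

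For each gene the tested gene with the most similar course over the 4 libraries was found among 9759 genes averaging 5 CPM or more, as the smallest Euclidean distance between log2 values centred on each gene's mean. For Zbp1 this was Ccl2, a monocyte chemokine (distance 0.086). Ifih1 lay nearest to Trim12a (0.015), Ddx58 to Sp100 (0.037), Dhx58 to Cd1d1 (0.07) and Eif2ak2 to Gsap (0.072). Tmem173 lay nearest to Plxdc2 (0.024), Mb21d1 to Dab2 (0.024), Mavs to Calr (0.019) and Tbk1 to Ubr4 (0.0065). With 4 libraries and so many candidates, a near match describes these libraries only. Among the members themselves, Ddx58 and Ifih1 were closest to each other (0.099), and Zbp1 was farthest from its nearest member, Dhx58 (0.91).

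The wider pathway was read from 7 lists with 128 genes, of which 106 passed the filter, of which Fat had 9 called lower and 3 called higher (8.49% and 2.83%, against 5.0% and 3.99% of all tested genes). Proteins that limit self nucleic acid had the most calls: 5 of 15 were called lower and 0 higher, with a median of -0.12. Of these 15, 6 were lower and 0 higher at an unadjusted limma p under 0.05, and edgeR's and DESeq2's tests also called 0 higher. The share of all tested genes at that unadjusted threshold is not given here, so the count has no baseline. Trex1, the main cytosolic DNA exonuclease, was at 52.6 and 45.0 CPM in Con and at 34.0 and 26.0 CPM in Fat (fold change -0.71, standard error 0.13, limma adjusted p = 0.0188). The call of Trex1 held with each library left out. Samhd1, which hydrolyses dNTPs, had a fold change of -0.42 (adjusted p = 0.0358) and Rnaseh2b, a subunit of RNase H2, one of -0.41 (adjusted p = 0.0206). Dnase1l3, a secreted DNase, was called at a low level, from 1.80 and 1.44 CPM in Con to 0.75 and 0.61 CPM in Fat (fold change -1.14, adjusted p = 0.0298). Samhd1, Rnaseh2b and Dnase1l3 lost their calls without Con replicate 1 (adjusted p = 0.0655, 0.0759 and 0.152) and without Fat replicate 2 (0.146, 0.0926 and 0.103), so that either omission left 2 of the 5 calls. Samhd1 also lost its call with the TPM values (adjusted p = 0.0748) and with no filter (0.0521). Of the members not called, Dnase2a and Adar were the most abundant, with fold changes of -0.12 and -0.32 (adjusted p = 0.423 and 0.0734).

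Of 24 regulators of the RNA sensors and of Mavs, 1 was called lower and 1 higher, with a median of 0.01. Ddx60, a helicase linked to RIG-I signalling, was at 50 and 34.8 CPM in Con and at 26.2 and 16.6 CPM in Fat (fold change -1.0, standard error 0.23, limma adjusted p = 0.0371). Its call was lost without Con replicate 1 (adjusted p = 0.0812), without Fat replicate 2 (0.0681), with DESeq2 (0.131) and with the TPM values (0.0852). Trim25, a ubiquitin ligase that acts on RIG-I, was at 282.1 and 260.4 CPM in Con and at 359.9 and 320.8 CPM in Fat, so it was higher in both Fat libraries (fold change 0.33, adjusted p = 0.0368). The call of Trim25 was lost without Con replicate 2 (adjusted p = 0.0765), without Fat replicate 1 (0.125) and with the TPM values (0.0554). Ddx3x and Ppp1ca, the most abundant of the rest, had fold changes of 0.07 and 0.01 (adjusted p = 0.495 and 0.934).

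Between the adaptors and transcription, 1 of 18 genes was called lower and 0 higher by limma, with a median of -0.04. At an unadjusted p under 0.05, 2 were lower and 1 was higher, without a share of all tested genes to compare. The tests of edgeR and DESeq2 called 0 higher. The called gene was Ikbke, which encodes the kinase IKKε related to TBK1, at 164.6 and 141.6 CPM in Con and 121.2 and 111.6 CPM in Fat (fold change -0.39, standard error 0.08, limma adjusted p = 0.0282). Its call was lost without Con replicate 1 (adjusted p = 0.0654), without Fat replicate 2 (0.104) and with the TPM values (0.0792). Irf5 and Ikbkg had fold changes of -0.09 and 0.13 (adjusted p = 0.389 and 0.185). Irf7, the interferon-inducible partner of IRF3, is named after its values were seen: it was at 112.1 and 72.7 CPM in Con and at 60.0 and 24.6 CPM in Fat, a fold change of -1.23 with a standard error of 0.37 (limma adjusted p = 0.0918), which was not called.

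Among 25 other DNA sensors and regulators of STING, 1 was called lower and 1 higher, with a median of 0.01. Ifi204, a DNA-binding protein of the PYHIN family, was at 293.8 and 239.1 CPM in Con and at 169.7 and 120.5 CPM in Fat (fold change -0.89, standard error 0.16, limma adjusted p = 0.0172). Lrrfip1, which binds nucleic acid and acts through beta-catenin, had a fold change of 0.36 (adjusted p = 0.00868). Both calls held with each library left out. Surf4, the most abundant of the rest, had a fold change of -0.05 (adjusted p = 0.628).

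Of 14 genes listed as effectors of ZBP1 and PKR, 1 was called lower and 1 higher, with a median of -0.01. The list also holds Eif2ak1, Eif2ak3 and Eif2ak4, which encode other eIF2α kinases and not effectors of PKR. Mlkl, the executioner of necroptosis, was at 56.0 and 53.6 CPM in Con and at 42.2 and 32.9 CPM in Fat (fold change -0.56, standard error 0.11, limma adjusted p = 0.0243). Its adjusted p was 0.0512 without Con replicate 1 and 0.0565 with the TPM values. Atf4, a transcription factor translated when eIF2α is phosphorylated, had a fold change of 0.26 (adjusted p = 0.0249), and its call was lost without Con replicate 2 (0.0581), Fat replicate 1 (0.0913) or Fat replicate 2 (0.0863). Dnajc3 and Ppp1r15b had fold changes of -0.16 and -0.04 (adjusted p = 0.16 and 0.713).

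In endosomal nucleic acid sensing, limma called 0 of 10 genes in either direction, with a median of -0.07. At an unadjusted p under 0.05, 3 were lower and 0 higher, again without a share of all tested genes to compare. edgeR's exact test called 1 lower, and its quasi-likelihood test and DESeq2 called 0. Tlr13 and Unc93b1, the most abundant, had fold changes of -0.04 and -0.10 (limma adjusted p = 0.775 and 0.466). Of the 21 interferon ligands listed, Ifnb1 and Ifng had values here and both fell under the filter. Ifnb1, the first product of these pathways, had 1 read in each Con library and 0 in each Fat library, which is within the detection floor of 3 reads in every library, so no difference was detectable at this depth. Ifng had 13 and 17 reads in Con and 4 reads in each Fat library. The other 19 ligands were not analysed here.

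**Figure D4:**
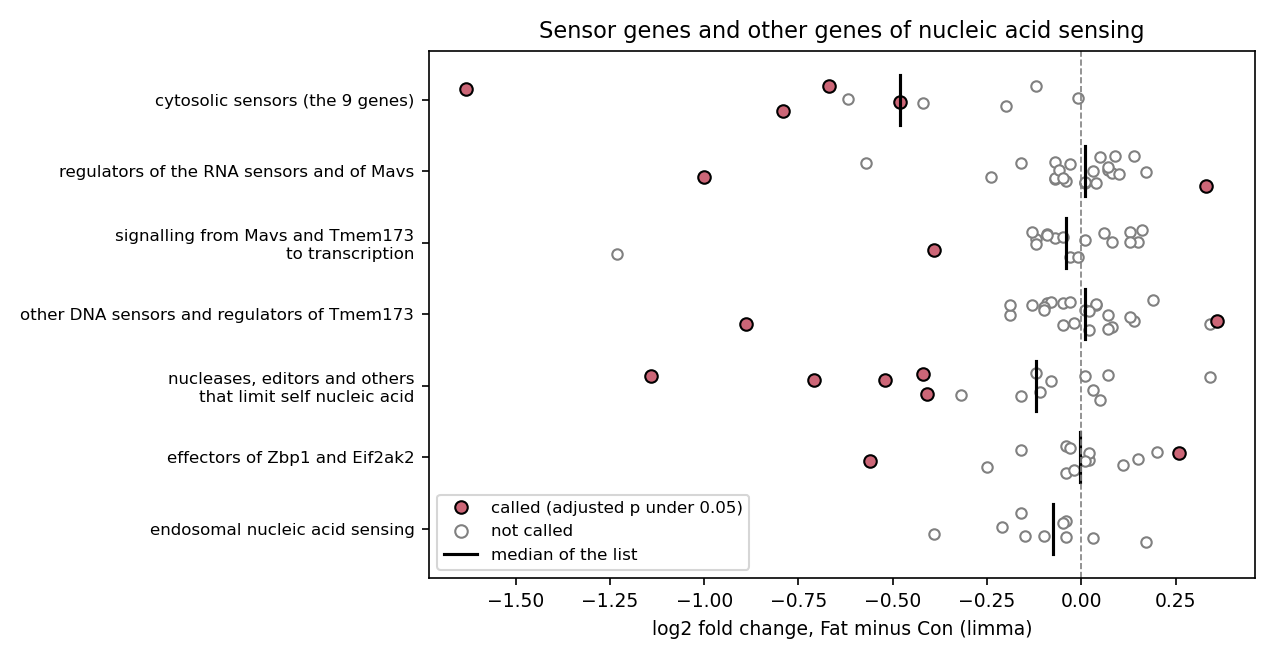
Log2 fold changes (x axis, Fat minus Con, limma) of the 9 sensor genes and of the tested genes of 6 further lists (rows), with filled points for called genes and a vertical line at each list's median. The sensors' median is -0.48 and that of the proteins that limit self nucleic acid -0.12, and the other 5 medians lie between -0.07 and 0.01.

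The macrophage identity of the cells was checked against 10 markers, all of which passed the filter. Their summed level was between 35431.8 and 37520.0 CPM in Con and between 28162.5 and 29914.0 CPM in Fat. Of the 10, 2 were called lower and the other 8 were not called, with a median of -0.21. At an unadjusted p under 0.05, 7 were lower and 0 higher, and the share of all tested genes at that threshold is not given here. In 8 both Fat libraries lay below both Con libraries, an order found in 26.2% of the tested genes. Lyz2 and Itgam were the most abundant (fold changes -0.41 and 0.07, limma adjusted p = 0.209 and 0.698), and the called genes were Fcgr1 (-0.88), a high-affinity IgG receptor, and Mertk (-0.31), a receptor for apoptotic cells. Fcgr1 kept its call with each library left out, while that of Mertk was lost without Con replicate 1, without Fat replicate 2 and with the TPM values (limma adjusted p = 0.0776).

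Markers of other cells were read as well. Of 10 adipocyte markers, 2 were tested, and 1 of these, Cidec, a lipid droplet protein, passed the filter only through the Fat libraries. It had 0 and 2 reads in Con and 67 and 47 reads in Fat, and no test of it is given for that reason. Adipoq, Lep, Cidea and Adrb3 were at 0 in both Con libraries and between 0 and 30 reads in the Fat libraries. Retn, Plin1 and Cfd had 3 reads or fewer in each Con library and between 5 and 16 in each Fat library. Acvr1c had 1 and 3 reads in Con and 2 and 0 in Fat. Summed, the adipocyte markers were at 20.3 CPM in both Con libraries and at 20.5 and 21.2 CPM in Fat, mostly from Lipe. Lipe itself was at 20.1 and 20 CPM in Con and at 16.3 and 18.6 CPM in Fat (fold change -0.20, limma adjusted p = 0.211). The sum thus hides the higher reads of the other markers in Fat. Of 8 dendritic cell markers 5 were tested and Bst2, itself interferon-inducible, was called lower (-0.66). Their sum was between 223.9 and 240.7 CPM in Con and 164.8 and 170.3 CPM in Fat. Most of it came from Bst2, at 169.7 and 156.8 CPM in Con and 106.3 and 99.6 CPM in Fat. Tcf4, the next most abundant, had a fold change of 0.03 and was not called. Clec9a was at 15.6 and 11.4 CPM in Con and at 10.5 and 7.29 CPM in Fat. Its fold change of -0.60 was not called (limma adjusted p = 0.116). The median of the 5 tested markers was -0.28. In 3 of them both Fat libraries lay below both Con libraries, an order found in 26.2% of the tested genes, and in 0 above. Siglech was at 7 reads or fewer and Flt3 at 3 reads or fewer in every library. Of 7 granulocyte markers 6 were tested and none was called by limma, and their sum was between 327.5 and 372.2 CPM in Con and between 316.3 and 316.5 CPM in Fat. The median of these 6 was -0.34, and in 5 both Fat libraries lay below both Con libraries. Of 6 stromal markers 5 were tested and Dcn was called lower (-0.82, limma adjusted p = 0.0358), a call that was lost without Con replicate 1, Con replicate 2 or Fat replicate 1. The stromal sum was between 613.8 and 637.7 CPM in Con and between 512.5 and 656.4 CPM in Fat. The endothelial markers (2 of 5 tested) summed to between 4.58 and 6.28 CPM in Con and 6.89 and 7.56 CPM in Fat, and the lymphocyte markers (6 of 7 tested) to between 19.6 and 21.2 CPM in Con and 16.1 and 17.6 CPM in Fat. Medians were -0.21 for the stromal, 0.38 for the endothelial and -0.36 for the lymphocyte markers. Both Fat libraries lay below both Con libraries in 4 of 5 stromal and 5 of 6 lymphocyte markers tested. They lay above in both tested endothelial markers. The part of other cells in the differences of the sensor genes was not tested.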

How the data were processed

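Polyadenylated RNA of 4 libraries (TruSeq Stranded mRNA kit, single reads) was measured. The deposited values are CPM, which the authors scaled to library size with a further factor per library, and TPM, which the authors also scaled for gene length. Per the labels the build was GRCm39. The aligner, annotation, filters and use of strand in counting are not given in the sources used here. The study names edgeR for Fat against Con, and since the deposited unit is CPM, limma was the main test. Dividing each CPM value by what 1 read is worth in its library gave whole reads, within 0.01, for 100% of values, and a floor of 3 reads was used. Such floors and the counting errors cover counting only.

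Fat was compared with Con with limma 3.58.1 (R 4.3.3) on log2(CPM + 0.1). Alternatives were other pseudocounts, filters, scalings, no trend, a replicate block, leaving out each library, and edgeR 4.0.16 and DESeq2 1.42.0 on the recovered reads. Members and lists were chosen with earlier results of these data known. Named are the 9 members, called genes of each list, the 2 most abundant others, and nearest genes. Some genes that this rule names are not reported here.

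Exact stretches of 75 bases in GENCODE vM21 transcripts were compared: at most 3.05% of a member's were found in other genes. Antisense genes overlap exons of Dhx58, Mb21d1 and Eif2ak2, so their reads are uncertain to that extent. Python 3.11.15, pandas 2.3.3 and matplotlib 3.10.9 were used.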

Additional observations from a re-analysis of the deposited data

How the results depend on the processing

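The call of the sensors as a group depended on the variance model and on single libraries, while the direction of each called sensor held under every alternative run. Limma called 4 sensors lower. The count was 2 with the TPM values and 0 without the mean-variance trend, and between 2 and 6 with 1 library left out (2 without Con replicate 1 or Fat replicate 2, 6 without either of the others). With 1 library left out, the lone library of its group is assumed to vary like the other group. Among all genes, the TPM values gave 366 lower and 425 higher calls, so that 53.7% of the calls were higher, against 44.4% with CPM. Without the trend 12 were called lower and 19 higher, and leaving out 1 library gave 313 to 612 lower and 216 to 519 higher. On the recovered reads, edgeR's quasi-likelihood test called 648 lower and 490 higher and DESeq2 600 and 460. Of the sensors, edgeR's exact test called 6 lower, its quasi-likelihood test 4 and DESeq2 3. The DESeq2 calls were Tmem173, Zbp1 and Eif2ak2, so Ifih1 and Dhx58 were not among them. The cause of these shifts was not tested. The fold change of Tbk1, -0.01, was 0.02 with the TPM values, and it lay between -0.05 and 0.03 with 1 library left out, at 0.03 without Con replicate 1 and 0.02 without Fat replicate 2.

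Without the trend every list lost its calls: 0 lower and 0 higher among the regulators of the RNA sensors, the other DNA sensors, and the effectors of Zbp1 and Eif2ak2, and 0 lower among the signalling genes and the nucleases and editors. With the TPM values, 0 were called lower among the regulators of the RNA sensors, the signalling genes and the effectors, and 0 regulators were called higher. Median ratios and edgeR's exact test each called 2 regulators lower, and DESeq2 called 0. The exact test also called 2 signalling genes, 2 effectors and 1 endosomal gene lower, and with no filter 1 interferon ligand, Ifng, was called lower. With 1 library left out, the regulators gave 0 to 3 lower and 0 to 1 higher, the signalling genes 0 to 2 lower, the nucleases and editors 2 to 6 lower and 0 to 1 higher, the effectors 0 to 1 in either direction and the endosomal genes 0 to 1 lower. Of 292 alternative values for 21 genes, 49 lost a call, 9 gained one and 3, all of Tbk1, turned the direction.

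Con and Fat share the replicate numbers 1 and 2, but the labels name no shared batch, and with 2 pairs the numbers do not establish a pairing. Deviations of same-numbered libraries from their group means correlated at 0.20 over all tested genes and at 0.339 over those averaging 5 CPM or more. A fit with the number as a replicate block called 1242 genes lower and 1278 higher, and Ddx58 and Eif2ak2 joined the called sensors, making 6. The block called 3 regulators lower and 2 higher, 2 signalling genes lower, 2 other DNA sensors lower and 2 higher, 3 effectors lower and 2 endosomal genes lower. Depth limited Ifnb1, which had few reads, and counting error was at most 5.0% of any sensor's value. With 2 libraries a group, small differences in Mavs, Mb21d1 and Tbk1 could not be resolved beyond the intervals given.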
